A study of Caenorhabditis elegans with 4 samples.

Results

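The regions described here are the peaks that eCLIP, a sequencing assay of RNA crosslinked to an immunoprecipitated protein, gave on the X chromosome of Caenorhabditis elegans. They were taken as every peak of the deposited MSTR-1 list whose chromosome is X, which gave 355 of 2664 peaks. The 4 libraries came from whole young adult worms kept at 25 °C and irradiated with UV at 1.2 mJ/cm2. Both MSTR-1 immunoprecipitations, called biological replicates in the design text, and the single size-matched input came from worms that carry the allele on49, a 3xFLAG tag on MSTR-1 at its gene F22D6.2 on chromosome I. The remaining immunoprecipitation came from N2 worms, which carry no tag, so the N2 library measures what the antibody brings down without its target. The input is of the tagged genotype, and no N2 input was analysed here. Which column of the table is which MSTR-1 replicate is not stated, and the names library A and library B are used for them.

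The X is the sex chromosome of the worm: hermaphrodites carry a pair of copies and males carry one. In somatic cells of hermaphrodites a dosage compensation complex lowers transcription from both X chromosomes, and in much of the germ line the X is kept largely silent. Genes needed in the early germ line and in sperm are therefore rare on it, while genes of muscle, epidermis, intestine and neurons are common. The X also carries a large part of the worm's transfer RNA genes. A whole-worm lysate mixes all these tissues, and a lower level in each cell cannot be told apart from fewer cells of a type.

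Libraries A and B held 71027 and 89924 reads inside the X peaks and the input held 32755. Most of these lay in peaks that touched transfer RNA genes, many of which touched another gene too. Such tRNA peaks held 79.99% of library A's X reads, 74.4% of library B's and 77.2% of those in the input. Peaks over protein-coding genes held 12233, 18786 and 6841 reads. The median X peak was 171 nt long, and medians of reads per peak were 16, 26 and 8 in library A, library B and the input, against 15, 24 and 8 on chromosomes I to V. Depth per peak was thus alike on the X and on the other chromosomes, and at these counts a peak has to differ several-fold from the input before a difference is detectable. Library A had no read at 16 X peaks, while library B had at least 1 read at each of them. Over the 355 peaks, Pearson's r between the libraries was 0.86 and Spearman's rho 0.84 on log2(scaled reads + 1) (a description across peaks that share libraries). They differed at least 8-fold at 17 peaks, of which 16 were higher in library B.

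Named by position, 318 of the 355 X peaks touched a single gene, 28 touched 2, 6 touched at least 3 and 3 touched no gene. Where a peak touches no other gene it is counted as an own peak of its gene. By kind of RNA, 316 lay over protein-coding genes, 27 over tRNA genes or tRNA pseudogenes, 4 over other pseudogenes, 2 over snoRNA genes and 3 over other non-coding genes. A peak over a tRNA gene and any other gene was counted as tRNA, and 8 of the 27 were own peaks. Transfer RNA made up 7.61% of the peaks on the X and 1.17% on chromosomes I to V. The numbers of such peaks were equal, 27 in each case, although the X carries 276 nuclear tRNA genes and chromosomes I to V together carry 336. Of these genes 26 on the X (9.42%) and 30 on I to V (8.93%) lay under a peak.

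How the X compared with the other chromosomes was asked first of peak numbers. Fewer X genes had a peak than genes of I to V, and those that had one carried slightly more peaks each. The X held 13.3% of all peaks (exact 95% interval 12.1 to 14.7) and 13.7% of all protein-coding genes. Of 2730 protein-coding genes on the X, 150 had an own peak, or 5.49% (4.67 to 6.42), against 1153 of 17241, or 6.69% (6.32 to 7.07), on I to V. This share was not the lowest of any chromosome. Chromosome V stood at 4.14% and chromosome II at 6.24%, while III reached 8.89%. The mean number of own peaks per gene with a peak was 2.01 on the X, 1.94 on V and 1.67 on III, with a median of 1 on all 6 chromosomes. The gene let-2 alone gave 19 of the 302 own peaks behind the X mean. Genes with 5 or more own peaks made up 11 of the 150 X genes (7.33%) and 54 of 1153 on I to V (4.68%). No expression level was available, so these counts mix how strongly a gene is expressed with how well its RNA came down, and peaks of 1 gene share a transcript. Differences between chromosomes are given without a test, since peaks and genes are not replicates.

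**Figure D1:**
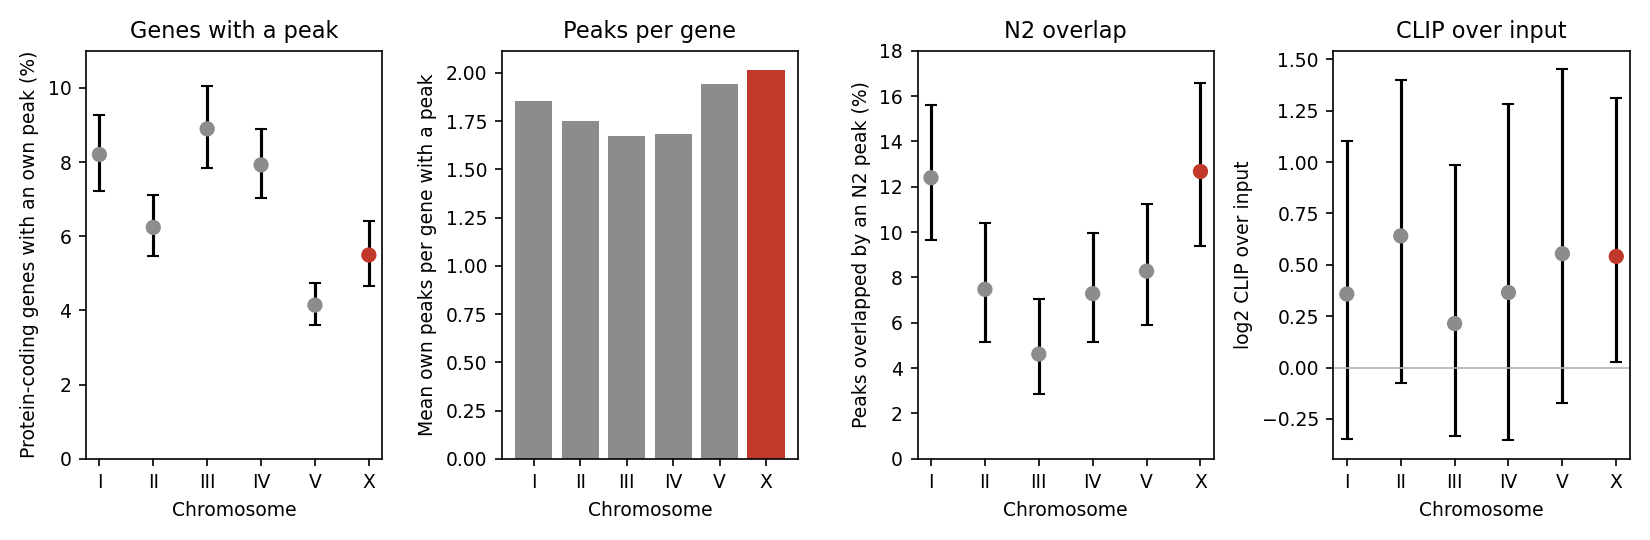
Peak measures by chromosome, with the X in red: the share of protein-coding genes with an own peak and the share of peaks that an N2 peak overlaps (bars, exact 95% intervals of counting error), the mean number of own peaks per gene with a peak, and the median log2 CLIP over input (bars, the middle 50% of peaks). The X lies between V and II in genes with a peak, has the highest mean of peaks per gene (2.01), and has a median log2 CLIP over input of 0.54, below II and V. Of the 302 own peaks behind the X mean of peaks per gene, 19 are of let-2.

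The tissues of the genes with peaks were described with 14 gene lists. On the X the listed genes with peaks were mainly those of cuticle, muscle and intestine. The germ line and sperm lists, with 5 members there, supplied almost none. Among the X members of the 6 somatic lists (muscle, basement membrane, cuticle, epidermal attachment, intestine and neurons) 34 (30.4%) had an own peak, against 106 of 377 (28.1%) on I to V. Peaks of these lists were 31.5% of all X peaks and 15.2% of all peaks on I to V. The lists also hold a larger share of the X's genes than of the genes on I to V. Own peaks per listed gene with a peak were alike, 3.29 on the X and 3.30 on I to V. Why the peak shares differ was not tested, and the pooled shares mix lists that differ in direction between the X and I to V. The germ line and sperm lists had 5 members on the X, of which 1 had a peak, and 158 on I to V, of which 47 (29.7%) had one. All 5 are of the germ line list. In that list alone 1 of 5 (20%) on the X and 14 of 65 (21.5%) on I to V had a peak. A share that rests on 1 X gene with few reads cannot be compared with that on I to V. The X member with a peak was puf-9, which encodes an RNA-binding protein of the Pumilio family, with 0 and 12 CLIP reads against 1 in the input. Whether puf-9 acts in the germ line was not examined here. The other members on the X, meg-1, meg-2, meg-3 and meg-4 of the P granules in embryos, had none. No sperm gene of the list lies on the X, while 33 of 93 on I to V had a peak.

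The lists did not all behave alike. Muscle genes had a peak at 10 of 15 members on the X and 21 of 42 on I to V, and intestinal genes at 9 of 26 and 9 of 67. Cuticle collagens and cuticlins stood at 11 of 36 and 60 of 178. Neuronal genes had an own peak at 0 of 23 members on the X, among them genes of the FMRFamide-like peptides (flp), and at 5 of 60 on I to V. A peak at the neuropeptide gene flp-28 also lay over W07E11.1 and is no own peak. Sex determination and dosage compensation genes, including xol-1, sdc-1 and sdc-2 on the X, had a peak at 0 of 5 and 1 of 14. Of the 150 X genes with an own peak 109 are in no list, so the lists describe 27.3% of these genes. The epidermal list had a peak at 1 of 7 members on the X, the apical junction gene ajm-1, whose peaks had 13 and 8 reads against 6 and 9 and 7 against 3, and neither passed.

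**Figure D2:**
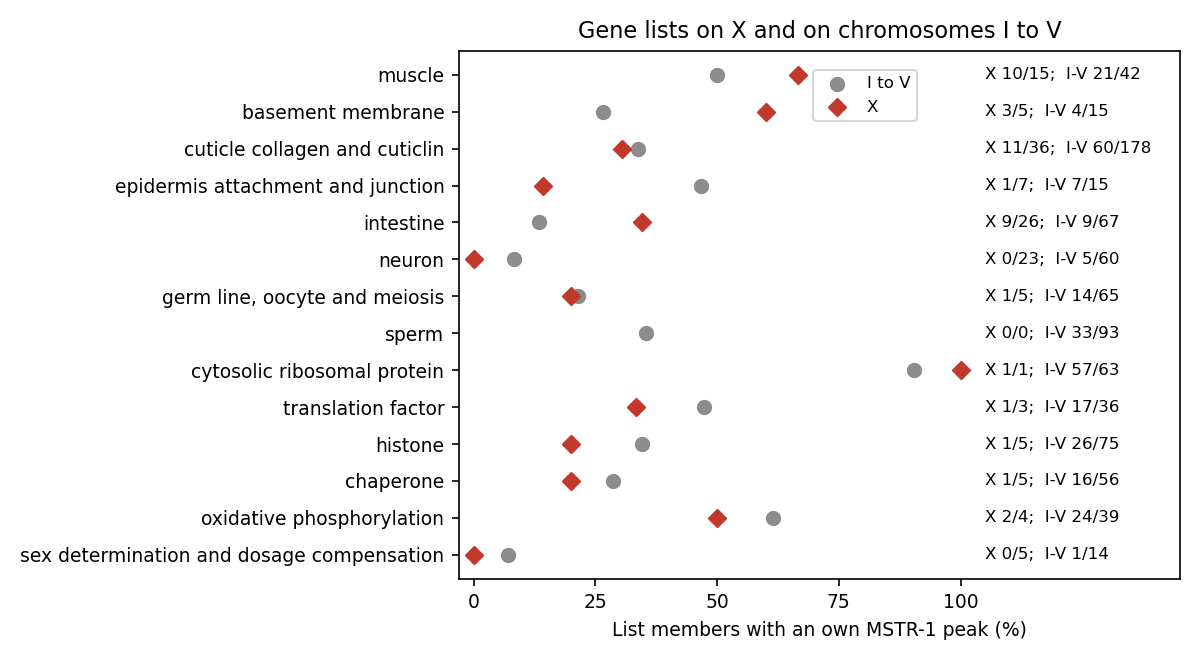
Share of the members of each gene list that had an own MSTR-1 peak, on the X (diamonds) and on chromosomes I to V (circles), with the counts at the right. Muscle, basement membrane and intestine lie further right on the X, neurons and epidermal attachment genes lie further left, and the sperm list has no X member.

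Whether the peaks stood above the input was tested over all 2664 peaks. With the authors' scaling limma called about the same share of X peaks as of all peaks, while edgeR, and limma with TMM factors, DESeq2 size factors or column totals, called a smaller share of X peaks higher. By limma, with Benjamini-Hochberg adjustment over all peaks at 0.05, 48 X peaks (13.5%) were higher than the input, beside a background of 12.7% of all peaks. Lower than the input were 5 X peaks (1.41%), beside 1.76% of all peaks, and 302 did not pass. The 48 higher peaks stood above the input in both libraries and had a median mean fold (the mean of both scaled CLIP values over the scaled input) of 3.28. They lay over protein-coding genes (38), tRNA genes (7), a pseudogene, a non-coding RNA gene and a site without a gene (1 each). An N2 peak overlapped 15 of the 48 (31.3%), beside 31.8% of all higher peaks. Of 137 own peaks of listed X genes 29 were higher (21.2%), and of 165 own peaks of unlisted protein-coding X genes 7 were (4.24%), beside the same 12.7% of all peaks. Of the 29, 16 were cuticle collagen peaks. Median CLIP reads per peak, both libraries together, were 122 in the collagen list, 183.5 in muscle and 141 in basement membrane. All X peaks had medians of 16 and 26 in libraries A and B, so listing and depth cannot be told apart here. The lists were chosen with earlier results known. All 5 lower peaks lay over listed genes. On the recovered reads edgeR's quasi-likelihood test called 22 X peaks higher (6.20%, background 9.5%), all of them among the 48, and 4 lower (1.13%, background 1.43%). No peak in the list has a summed CLIP value under the input's, so the calls describe peaks already selected against this input. The fit lets the single input share the spread of the CLIP libraries, pooled over peaks of like level, and in limma without a variance trend 0 X peaks passed, with 55 higher and 0 lower at an unadjusted p under 0.05.

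The direction against the input depended on the scaling, and so did the share of X peaks called against that of all peaks, while the X median stayed above that of I to V under each scaling tried. Across the X peaks the median log2 CLIP over input was 0.54 as the authors scaled the libraries, 0.16 by TMM factors and -1.35 with column totals. Calls on the X with TMM factors were 21 higher (5.92%) and 17 lower (4.79%), beside backgrounds of 8.86% and 9.05%. With DESeq2's size factors they were 20 (5.63%) and 14 (3.94%), beside 8.6% and 7.47%. With column totals, which ribosomal RNA on chromosome I dominates, they were 4 higher (1.13%) and 185 lower (52.1%), beside 2.14% and 51.1%. The X median lay 0.12 above that of I to V with the authors' factors, 0.12 with TMM and 0.15 with column totals. It lay 0.24 above in library A alone and 0.084 above in library B alone, against a spread of 1.29 between the lower and upper quartiles of the X peaks. Among single chromosomes the medians were 0.64 on II, 0.55 on V, 0.37 on IV, 0.36 on I and 0.21 on III, so the X stood between IV and V. Both libraries lay above the input at 62.5% of X peaks and 51.4% of peaks on I to V, and both lay below it at 15.2% and 23.1%.

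Counted by gene, the median over the 150 X genes was 0.80, against 0.38 over 1153 genes on I to V and 0.65 on II, the next highest. Genes with a single peak had a median of 0.98 on the X and 0.47 on I to V, and genes with more peaks 0.54 and 0.27. Among genes with more peaks the X was not the highest, since II stood at 0.60 and V at 0.55. Where a gene had at least 50 CLIP reads the medians were 0.54 over 59 X genes and 0.20 over 500 genes of I to V. The X was above I to V in library A alone (0.70 against 0.22) and in library B alone (0.77 against 0.55), where II stood higher still, at 0.84.

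**Figure D3:**
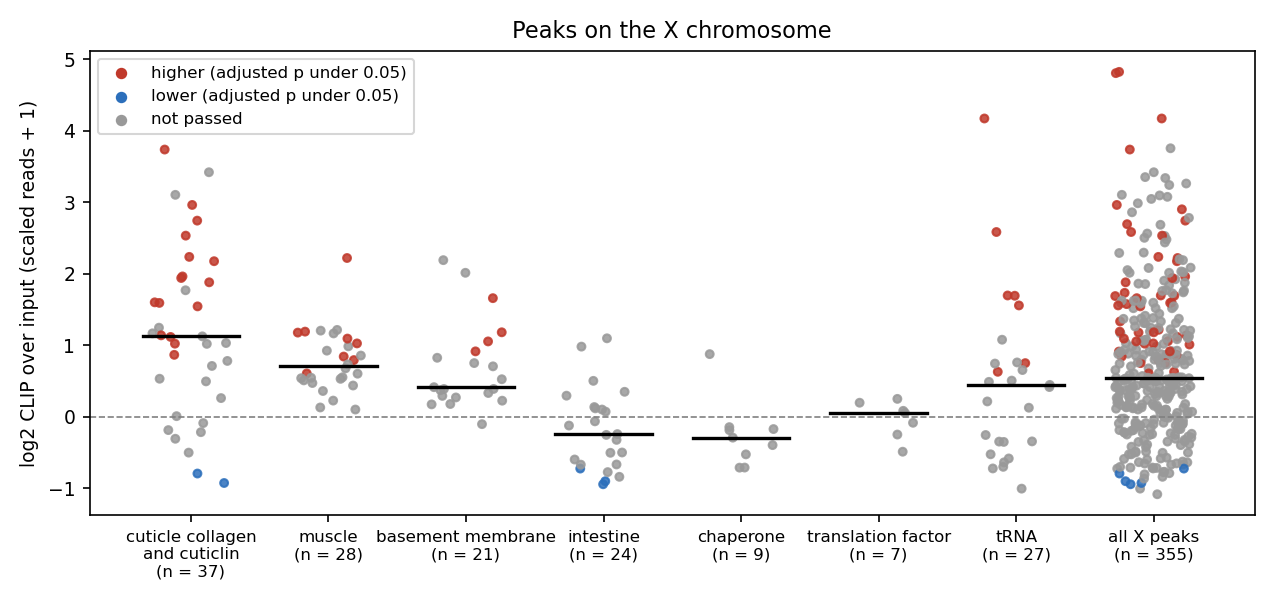
log2 CLIP over input of single X peaks (points) in gene groups, with each group's median as a black line; red points passed as higher, blue points as lower, and grey points did not pass. Collagen peaks reach 3.74 on this scale and have a median of 1.12, muscle peaks have a median of 0.71, and intestinal (-0.25) and chaperone (-0.29) peaks lie mostly below 0.

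Cuticle collagens, the structural proteins of the exoskeleton made by the epidermis, gave the largest group of higher X peaks among the lists. Of 37 own peaks 16 were higher, 2 lower and 19 did not pass, beside 12.7% higher and 1.76% lower of all peaks. TMM factors left 10 higher and 5 lower, and column totals 1 and 17. Their median lay 0.67 above that of all 2664 peaks, 1.05 in library A alone and 0.39 in library B alone. This was not particular to the X. The same list on I to V had 85 of 150 own peaks higher and 1 lower, with a median log2 of 1.36 against 1.12 on the X. An N2 peak overlapped 6 of the 37 X peaks and 31 of the 150 on I to V, beside 8.75% of all peaks. On the X the group split by locus. The genes col-166, col-167, col-168, col-169 and col-170 (X:6280015 to 6332611) had 20 own peaks, of which 13 were higher, 0 lower, and all 20 stood above the input in both libraries. Their median was 1.20 above that of all peaks and 1.22 above with TMM. The 17 peaks of the other X collagens had 3 higher and 2 lower, with a median 0.19 below that of all peaks. This split was chosen after the values were seen.

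Within that locus, col-167 held the highest fold. Its peak at X:6324190 to 6324442 had 46 and 79 CLIP reads against 2 in the input. Both libraries were far above the input, at a mean fold of 17.6 (exact 95% interval of counting error 4.78 to 147) and a log2 change of 3.74, SE 0.51 (limma adjusted p = 1.40e-11). The other peaks of col-167 from lower to higher coordinate had 6.89-fold and 5.24-fold, after a first peak that did not pass (1.46-fold). In col-168 a first peak had 11 and 12 reads against 0 and did not pass, and the next had 126 and 133 reads against 34, then 71 and 83 against 11, then 42 and 55 against 3. The mean fold was thus 2.28, 4.14 and 9.43 along the gene, and the input reads fell more steeply than the CLIP reads. In col-166 a first peak did not pass (2.97-fold), and the next folds were 2.25, 5.71 and 8.68, all called higher. The peaks of col-169 and col-170 showed no such order, with called folds of 3.35, 3.83 and 1.84 in col-169 and 2.04 in col-170. Collagen genes resemble each other in sequence and the rule for placing shared reads is not known here, so values of single collagens are uncertain.

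Further along the chromosome, col-181 had a peak above and a peak below the input within a kilobase. At X:12105055 to 12105301 there were 46 and 76 reads against 11, a mean fold of 3.14 (limma adjusted p = 0.00163). At X:12105841 to 12106017 there were 91 and 131 against 122, a mean fold of 0.525 (0.419 to 0.660, adjusted p = 0.00953). The collagen col-179 also had a lower peak, with 72 and 131 reads against 99 (mean fold 0.574, limma adjusted p = 0.0457, edgeR adjusted p = 0.0526). The peaks of col-184 had mean folds of 0.859 to 0.879 and none passed. Over all own peaks the summed folds were 2.63 in col-180 (2 of 4 called higher), 1.93 in col-175 and 1.11 in col-178 (0 called in each). The pseudogene col-182 had 16 and 51 reads against 2, a mean fold of 8.80 (limma adjusted p = 0.000662). The adult collagen col-19 lay under peaks shared with hrg-11.4, the larger with 529 and 860 reads against 360, and neither was called.

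**Figure D4:**
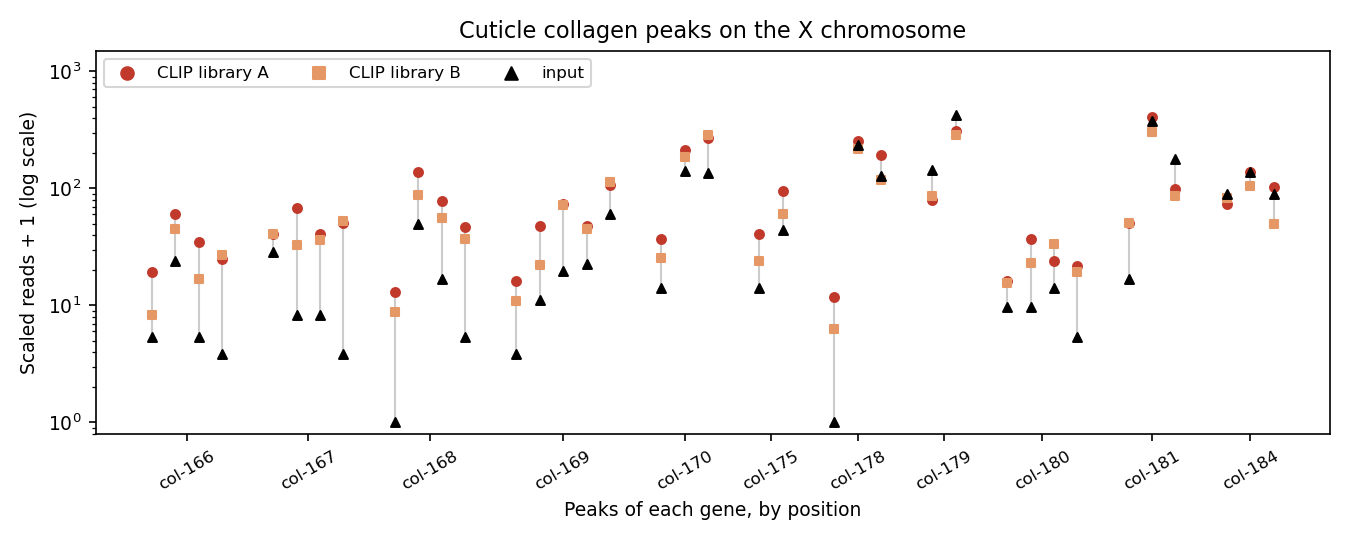
Scaled reads plus 1 (log axis) of every own peak of the X cuticle collagens, grouped by gene and ordered by position, for CLIP library A (circles), library B (squares) and the input (triangles). In col-166, col-167 and col-168 the input falls to 2 or 3 reads at the last peak while the CLIP values lie well above it. In col-179 both CLIP libraries lie below the input (summed folds of 0.688 in A and 0.658 in B), and in col-184 these folds are 0.995 and 0.744.

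Basement membrane genes were led by let-2, which encodes a chain of type IV collagen and had more own peaks than any other gene of the list of peaks, 19 in all. Summed over them, library A had 1023 reads, library B 1709 and the input 518. The summed fold was 1.49 (1.36 to 1.64), nearly equal in both libraries. Reads per peak ranged from 5 to 117 in library A, from 11 to 175 in library B and from 1 to 60 in the input. Both libraries lay above the input at 16 of the 19 peaks. Of the 19, 4 were called higher and 0 lower, beside 12.7% and 1.76% of all peaks (1 and 0 with TMM, 0 and 16 with column totals). The median of the gene's peaks lay at -0.064 relative to that of all 2664 peaks, so these peaks stood about where the list as a whole stood. The peaks covered 48.9% of the gene's length. The highest called fold was at X:16386989 to 16387270, with 70 and 158 reads against 19, a mean fold of 3.28 (2.05 to 5.54, limma adjusted p = 2.21e-05). The peak with 10 and 11 reads against 1 had 6.26-fold and did not pass. An N2 peak overlapped 4 of the 19, that at 3.28-fold included.

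Its partner chain emb-9 lies on chromosome III and had 18 own peaks with 586, 819 and 228 reads, a summed fold of 1.78 (1.55 to 2.06). The other X genes of the basement membrane list with a peak had 1 each. The laminin gamma chain lam-2 had 4 and 34 reads against 1, which did not pass (limma adjusted p = 0.246), and an N2 peak with a fold of 31.5 in the authors' deposited table lay over it. The hemicentin him-4 had 5 and 8 reads against 2 and did not pass.

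**Figure D5:**
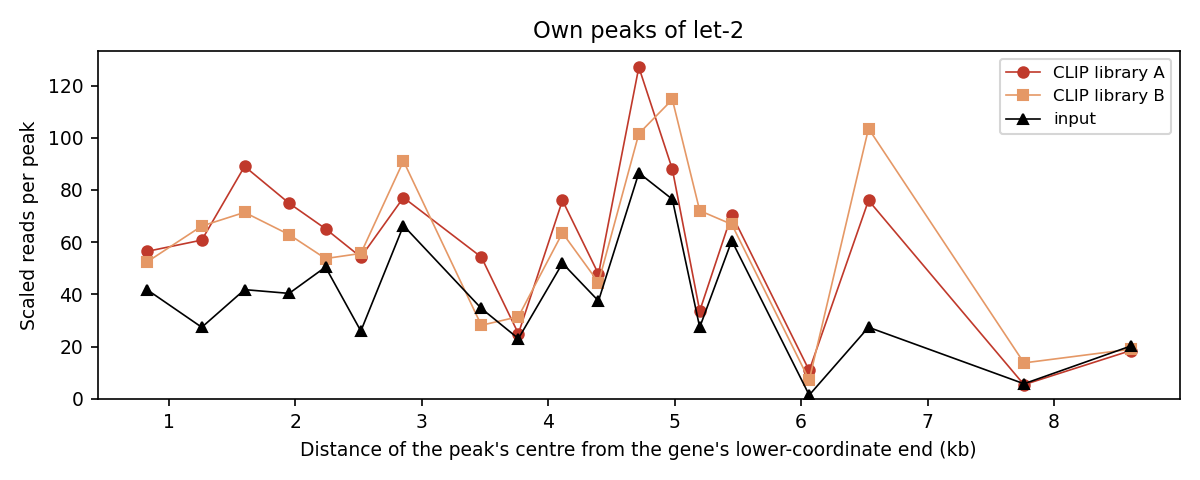
Scaled reads of the 19 own peaks of let-2 in CLIP library A (circles), library B (squares) and the input (triangles), against the distance of the peak's centre from the gene's lower-coordinate end in kb. The 3 lines rise and fall together along the gene, and the widest gap to the input lies at the peak near 6.5 kb (mean fold 3.28).

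Muscle genes on the X had 28 own peaks over 10 genes. Of these peaks 8 were higher, 0 lower and 20 did not pass, beside 12.7% higher and 1.76% lower of all peaks. TMM factors left 2 higher and 0 lower, and column totals 0 and 22. Both libraries stood above the input at 26 of the 28. Their median was 0.25 above that of all peaks, 0.41 in library A alone and 0.053 in library B alone. An N2 peak overlapped 7 of them (background 8.75% of all peaks). The regulatory light chain of myosin mlc-2 had the smallest p of the group, with 227 and 296 reads against 66, a mean fold of 2.31 (1.79 to 3.04, limma adjusted p = 6.90e-05). An N2 peak with a deposited fold of 17.2 lay over it in the authors' deposited table. The related light chain mlc-1 had 5 own peaks with 295, 420 and 120 reads in sum, and 1 was called (2.18-fold). On I to V the muscle list had 17 of 90 own peaks higher and 0 lower, with an N2 peak over 18. Its median log2 there was 0.85, against 0.71 on the X.

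The actin act-4 had 4 own peaks with summed reads of 909, 1399 and 402, a summed fold of 1.64 (1.48 to 1.83). Of these 3 were called higher, and N2 peaks overlapped 3. Thin filament regulators came next. The troponin T gene tnt-2 had 5 own peaks (386, 527 and 178 reads, 1.49-fold, 1 called), the troponin I gene unc-27 had 3 (353, 583 and 173 reads, 1.53-fold, 1 called), and the troponin T gene mup-2 had 4 (377, 679 and 215 reads, 1.38-fold, 0 called). The immunoglobulin-domain muscle protein gene dim-1 had a called peak with 72 and 49 reads against 15. Genes of the same list with few reads were tni-1, tnt-3 and the pharyngeal myosin myo-2, whose 2 peaks had 8, 16 and 2 reads in sum. None of their peaks passed.

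Intestinal genes on the X gave no higher peak. Among their 24 own peaks 3 were lower and 21 did not pass (limma), beside 12.7% higher and 1.76% lower of all peaks. TMM factors gave 7 lower and column totals 22. Their median was 0.70 lower than that of all peaks (a difference of -0.70 on the log2 scale), with -0.63 in library A alone and -0.74 in library B alone. An N2 peak overlapped 0 of the 24, beside 8.75% of all peaks. The vitellogenin vit-2, a yolk protein made in the intestine and taken up by oocytes, carried all 3 calls. It had 8 own peaks with 585 and 935 CLIP reads against 707 in the input, a summed fold of 0.612 (0.559 to 0.670). Both libraries were below the input at all 8. At X:5102799 to 5103069 there were 97 and 111 reads against 114, a mean fold of 0.541 (0.429 to 0.687, limma adjusted p = 0.0140, edgeR adjusted p = 0.0156), and the other 2 lower peaks had 0.604 and 0.518. Larger deficits could not appear in this list. Intestinal genes on I to V stood alike, with 0 of 28 own peaks higher and 2 lower and a median log2 of -0.26 against -0.25 on the X.

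Other vitellogenins on the X were shallower. The gene vit-5 had 4 peaks with 48, 70 and 39 reads (0.871-fold), vit-4 had 1 with 16, 19 and 7, and vit-1 and vit-3 had none. These genes resemble each other in sequence, so the placement of reads among them is uncertain. The autosomal vit-6 stood at 0.555-fold (0.491 to 0.629) over 6 peaks, close to vit-2. Among digestive and defence genes, the aspartyl protease asp-3 had 3 peaks (81, 115 and 48 reads, 1.18-fold), the cathepsin B-like protease cpr-6 had 2 (34, 59 and 27 reads) and the saposin-like gene spp-14 had 50 and 74 reads against 57. None of these passed. The S-adenosylmethionine synthetase gene sams-1 had 3 peaks at 0.918-fold in sum, and none passed. The saposin-like gene spp-5 stood at 1.07-fold and the intermediate filament gene ifc-2 had 18 and 18 reads against 5, and neither passed.

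Listed genes of protein synthesis and folding also lay near or below the input on the X, where each of these lists had 1 gene with an own peak. The lists miss some such genes, named here after their values were seen. The ribosomal protein gene rpl-23A.1 had 73 and 127 reads against 52 (1.08-fold, 0.795 to 1.50). The folding gene pdi-2 had 5 own peaks with 260, 340 and 155 reads (1.13-fold, 0.945 to 1.36), and no peak of either passed. The BiP chaperone of the endoplasmic reticulum hsp-3 had 9 own peaks with 147, 266 and 144 reads, a summed fold of 0.804 (0.663 to 0.979), and none was called. Both libraries were below the input at 5 of them and above it at 1. The elongation factor gene eef-1A.2 had 7 own peaks with 186, 287 and 144 reads (0.939-fold, 0.778 to 1.14), none called. Its autosomal copy eef-1A.1 on chromosome III had 3 peaks with 1140, 1693 and 1247 reads and stood lower, at 0.652-fold (0.610 to 0.698), with 2 peaks called lower. The ribosomal protein gene rpl-11.2 had 223, 280 and 177 reads over 2 peaks (0.834-fold, 0.701 to 0.995). It is the only member of the ribosomal protein list on the X, and neither of its peaks passed (1 was lower with TMM). The replacement histone H3 gene his-71 had peaks with 9 and 13 reads against 0 and with 7 and 13 against 6, and neither passed.

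Enzymes of energy metabolism outside the lists, chosen after their values were seen, included several genes with more than 1 peak. The glyceraldehyde-3-phosphate dehydrogenase genes gpd-3 and gpd-2 are neighbours. The first had 4 own peaks with 162, 257 and 54 reads, a summed fold of 2.21 (1.66 to 2.99). Of these 3 were called higher, beside 12.7% of all peaks. The second had 180, 276 and 74 reads at 1.76-fold with no called own peak. A peak over both gpd-2 and the next gene mai-1 had 80 and 187 reads against 34 (2.13-fold, limma adjusted p = 0.00676). An N2 peak with a fold of 6.30 in the authors' deposited table lay over it. Both subunits of propionyl-CoA carboxylase are encoded on the X, pccb-1 with 5 peaks (53, 90 and 19 reads) and pcca-1 with 3 (34, 45 and 15 reads), and none passed. The succinate dehydrogenase flavoprotein gene sdha-1, a member of the oxidative phosphorylation list, had a called peak with 17 and 57 reads against 5 (3.87-fold, limma adjusted p = 0.0160). The other X member with a peak, the ubiquinol-cytochrome c reductase gene ucr-2.2, had 4 and 13 reads against 2 and 0 and 13 against 2, and neither passed. With TMM factors the calls on gpd-3, on sdha-1 and on the peak over gpd-2 and mai-1 were lost. By edgeR the peak over gpd-2 and mai-1 passed (adjusted p = 0.0261). The 3 called gpd-3 peaks (edgeR adjusted p = 0.119, 0.0672 and 0.0755) and that of sdha-1 did not.

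The 5 X peaks with the most CLIP reads were 4 over tRNA genes and 1 at a site with no gene, and the next was the larger col-19 and hrg-11.4 peak. Peaks over the tRNA genes F52E10.t5, C39D10.t2 and M02F4.t2 had 21435, 17952 and 15164 reads in library A, 24448, 20984 and 18079 in library B and 9828, 7993 and 6260 in the input. Each of these peaks also touched a non-coding RNA gene (F52E10.7, C39D10.17 and M02F4.12), so none is an own peak of its tRNA gene. Together these peaks held 95.4% of CLIP reads in X tRNA peaks, and their mean folds were 1.39, 1.44 and 1.57. Only the last passed (limma adjusted p = 0.0250, edgeR adjusted p = 0.0705). Of 27 tRNA peaks 7 were higher and 0 lower, while 20 did not pass, beside 12.7% higher and 1.76% lower of all peaks. Folds over tRNA genes with fewer reads spread widely. The peak over F56C3.t1 had 286 and 329 reads against 55 (3.32-fold, 2.51 to 4.45, limma adjusted p = 1.14e-09), and that over F28H6.t3 had 35 and 63 against 4 (6.87-fold). At the other end, ZK154.t3 had 396 and 547 reads against 325 (0.841-fold) and K11E4.t3 had 78 and 123 against 95 (0.603-fold), and neither passed. N2 peaks overlapped 7 of the 27 tRNA peaks, beside 8.75% of all peaks. Their deposited folds were 3.02 over F56C3.t1, 1.29 over M02F4.t2 and 1.11 over C39D10.t2. Transfer RNA genes of one kind are near-identical, so reads may belong to copies elsewhere. Among other short or non-coding RNAs, the snoRNA gene C14E2.12 had 18 and 49 reads against 29 and the non-coding RNA genes F22F1.10 and F22H10.10 had 12 and 14 against 5 and 4 and 23 against 11, and none passed. The pseudogene Y73B3A.18 had 42 and 71 reads against 27 at one peak and 23 and 44 against 28 at the next, and neither passed.

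A pair of sites near X:1993445 stood out by depth. The peak over the non-coding RNA gene Y40A1A.5 (X:1993445 to 1993555) had 438 and 840 reads against 12. Its mean fold of 29.6 (16.9 to 57.5) was the highest on the X among peaks with an input read (limma log2 change 4.81, SE 0.26, adjusted p = 1.38e-71, edgeR adjusted p = 9.51e-33). An N2 peak with a fold of 14.1 in the authors' deposited table lay over it, so the untagged worms gave signal there too. The next peak, at X:1994209 to 1994323 on the opposite strand with no gene listed there, had 1412 and 3075 reads against 483 (2.55-fold, adjusted p = 6.94e-10). The deposited N2 fold there was close to 1. A peak over K01A12.3 and the tRNA genes K01A12.t4 and K01A12.t5 had 92 and 224 reads against 4 (21.4-fold, 8.27 to 78.9), with an N2 fold of 35.8 in the authors' deposited table.

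Some peaks high by fold had few input reads, and those over more than 1 gene or over mop-25.1 were chosen after their values were seen. The V-ATPase subunit gene vha-12 had a peak with 19 and 22 reads against 1 (12.1-fold, 2.06 to 491, limma adjusted p = 0.00772, edgeR adjusted p = 0.0701). At kin-2, sym-4 and the carbonic anhydrase gene cah-4 the peaks had 1 input read each and folds of 8.09, 7.64 and 7.63, and none passed. No input read fell in 30 X peaks (8.45%, beside 8% of all peaks). Of these 1 passed, over H40L08.2 and H40L08.7, with 21 and 50 reads, at least 6.42-fold higher than an input of 3 reads (limma adjusted p = 6.85e-07, edgeR adjusted p = 0.000137). The next bound was that of mop-25.1, at least 2.89-fold with 11 and 20 reads, which did not pass (limma adjusted p = 0.0508).

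Untagged worms gave signal at part of the X peaks. An N2 peak on the same strand overlapped 45 of the 355 (12.7%, exact 95% interval 9.40 to 16.6), beside 8.75% of all peaks and 8.12% (7.04 to 9.32) on I to V. Chromosome I stood at 12.4%, so the X was not alone at this level. Requiring 50% of the peak to be covered left 7.32%. The overlapped peaks lay over protein-coding genes (34), tRNA genes (7) and other sites. In the authors' deposited table the N2 fold over the input exceeded the MSTR-1 mean fold at 32 of the 45, with medians of 2.33 and 1.73. This count cannot rank the signals, because the tables were scaled separately and their peaks were selected differently. Every listed N2 peak lies above its input, while the mean fold of a listed MSTR-1 peak can lie below it. The same N2 fold also stands at neighbouring peaks of unc-27, pdi-2 and mlc-2. The highest N2 folds on the X after those named above were over T23E7.2 (30.5) and mai-1 (22.9), where MSTR-1 CLIP had 20 and 12 reads against 3 and 13 and 7 against 2, and neither passed. N2 CLIP is a single library, so these values carry no replicate error, and no test of tagged against untagged worms was made.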

How the data were processed

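The tools named are UMI-tools, cutadapt, deepTools and STAR, per the submitters' processing notes. Versions, the peak caller and the build are not stated in labels or headers. In the MSTR-1 and N2 peak tables that the authors deposited, each library column is a signal, reads per peak divided by 1 size factor per library; whole reads were recovered for 100% of values in each MSTR-1 column within 0.02 of a read. The authors' fold column is a ratio. For MSTR-1 it sums both CLIP columns over the input, and the mean fold used here divides it by 2. For N2 it is N2 CLIP over its input column.

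Peaks were named by position with the WBcel235 gene table on either strand, without 15363 piRNA genes. As a check of the build, 15 X peaks held at least 90% of a tRNA gene, and 3 or fewer did once moved by 20 nt or further. Coordinates are as deposited. N2 overlap means the same strand and at least 1 shared bp. The test was limma 3.58.1 (R 4.3.3) on log2(scaled reads + 1) with a variance trend, 2 CLIP libraries against 1 input, over 2664 peaks; edgeR 4.0.16 and DESeq2 1.42.0 were alternatives. Such log2 changes understate those of peaks with few reads. Intervals of folds are exact (binomial, summed CLIP reads against input reads) and, like those of shares, cover counting error only. Folds over 0 input reads are bounds against 3 reads. Scripts were tested on simulated reads.

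Named genes are X members of the lists and of 8 gene families with an own peak, the 10 own X peaks highest by mean fold (20 or more CLIP reads, both libraries above the input), the 10 with most CLIP reads, the 5 genes with most peaks, lower peaks, the 5 highest N2 folds and up to 5 peaks per non-coding class. Members, lists and rules were chosen with earlier results of these data known.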

Additional observations from a re-analysis of the deposited data

How the results depend on the processing

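Over 59 alternative values, 33 stayed close to the reported ones. The count of higher X peaks was 48. It was 22 with edgeR, 5 with DESeq2, 20 with DESeq2's size factors, 21 with TMM factors and, added after seeing the data, 4 with column totals, 22 with column totals without rRNA peaks and 0 with limma without a variance trend (55 higher and 0 lower X peaks had an unadjusted p under 0.05 there, and 78 and 12 in the reported fit). The count of lower X peaks was 5, and in the same order without edgeR it was 9, 14, 17, 185, 3 and 0. The median log2 CLIP over input of X peaks, 0.54, was 0.19 with DESeq2's size factors, 0.16 with TMM, 0.48 with a pseudocount of 5, -1.35 with column totals and 0.48 without rRNA peaks in the totals, and 0.54 to 0.59 with 1 CLIP library left out. The X median minus that of I to V, 0.12, was 0.084 to 0.24 with 1 library left out and 0.41 over genes in place of peaks, with the same sign under every alternative run. The X held 14.8% of peaks with a deposited fold of 2 or more. Among peaks with 20 or more CLIP reads 3.88% of X genes had an own peak, at 2.25 per gene, and at a deposited fold of 2 or more there were 1.78 per gene. With at least 50% of a peak covered, 7.32% had an N2 peak. Genes of the 6 somatic lists with an X peak numbered 30 to 34. The causes were not tested. No paired analysis was possible because the groups compared share fewer than 2 replicate numbers. The single input and the few reads per peak limit what is detectable.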
